A study of Mus musculus with 6 samples.

Results

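This account follows 32 genes of mitochondrial fatty acid oxidation and ketone body metabolism in the liver. They were taken by name from a list of enzymes, carriers and regulators, and each was read from the probe whose accession maps to that symbol in RefSeq, the brightest one where a gene had several. All 32 were on the array and all were above background, out of 20646 genes and unnamed transcripts measured, 13299 of which carried a symbol. The livers came from male Apoe-deficient mice on the C57BL/6J background, so both diet groups lack apolipoprotein E. The control group of 9 mice ate a purified Western diet holding 20% palm oil and 0.15% cholesterol. The other 10 mice ate that diet with 1% squalene, the linear hydrocarbon from which cells make sterols. The labels give a single time, 11 weeks of diet.

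Each diet contributed 4 RNA pools of 2 or 3 livers. One squalene pool and one Western pool were hybridised together on a 2-colour Agilent array, and the ratio within that pool pair was the replicate (n = 4). Squalene RNA carried the dye Cy5 in pairs 1 and 4 and the dye Cy3 in pairs 2 and 3. Pairs 1 and 2 were hybridised on 2 arrays each, which were averaged. Ratios are log2 of squalene over Western, so a negative value means a lower level with squalene. Pool levels are log2 intensities, and are compared only within a gene.

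Liver mitochondria burn long-chain fatty acids in steps. The acid is taken up, activated to an acyl-CoA, passed through the inner membrane on carnitine, and shortened by repeated rounds of dehydrogenation, hydration, a further dehydrogenation and thiolysis. The acetyl-CoA that results enters the citric acid cycle or is turned into ketone bodies for other organs. In fasting, the nuclear receptor PPARalpha drives many of these genes, while Pdk4 holds back pyruvate oxidation and so favours fat as fuel.

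The 10 hepatocyte markers checked against the labelled tissue were all measured, with a mean pool level between 15.64 and 15.88 in all 8 pools. Between 48.67% and 54.16% of spots per channel were well above background and none was saturated. The Apoe probe itself read 11.13 to 11.79 in the squalene pools and 11.29 to 11.92 in the Western pools; no source used here places it relative to the disrupted part of the gene, so it does not check the genotype. In these bulk pools, fewer cells of a type and less RNA per cell cannot be told apart. Nothing in the labels ties animals to pools beyond their number.

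The genes of this pathway stayed close to a ratio of 0. Of the 32, 18 had a mean ratio above 0 and 14 below, with a median of 0.0069 against 0.0028 over all 20646 features. With Pdk4 set aside, the means ran from -0.21 for Cd36 to 0.15 for Hadh, and 28 of the 32 lay within 0.1 of 0. None passed an adjusted p of 0.05 (limma, Benjamini-Hochberg over all features), and neither did any feature on the array, a share of 0%. At an unadjusted p under 0.05, limma called 1 of the 32, Pdk4, on the lower side. That is 3.12% of the genes, against 2.47% of all features (1.05% on the higher side and 1.42% on the lower side), so the share called was near the background.

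The 95% intervals give a range for each mean under the fitted model. The interval lay within 0.5 of 0 on the log2 scale, a factor of 1.41, for 30 of the 32 genes (93.8%), against 94.7% of all features. The exceptions were Cd36 and Pdk4. This interval comes from a fit that removes a difference between the dye orientations, which can also be a difference between pools. The fit also moderates each gene's variance by that of all features, so an interval can be narrower than the gene's own spread. For Fabp1, with an SD of 0.44 between pairs, it ran from -0.15 to 0.17. Without the dye term, 29 of the 32 (90.6%) had an interval within 0.5 of 0, against 92.9% of all features, and Hadh joined the exceptions.

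**Figure D1:**
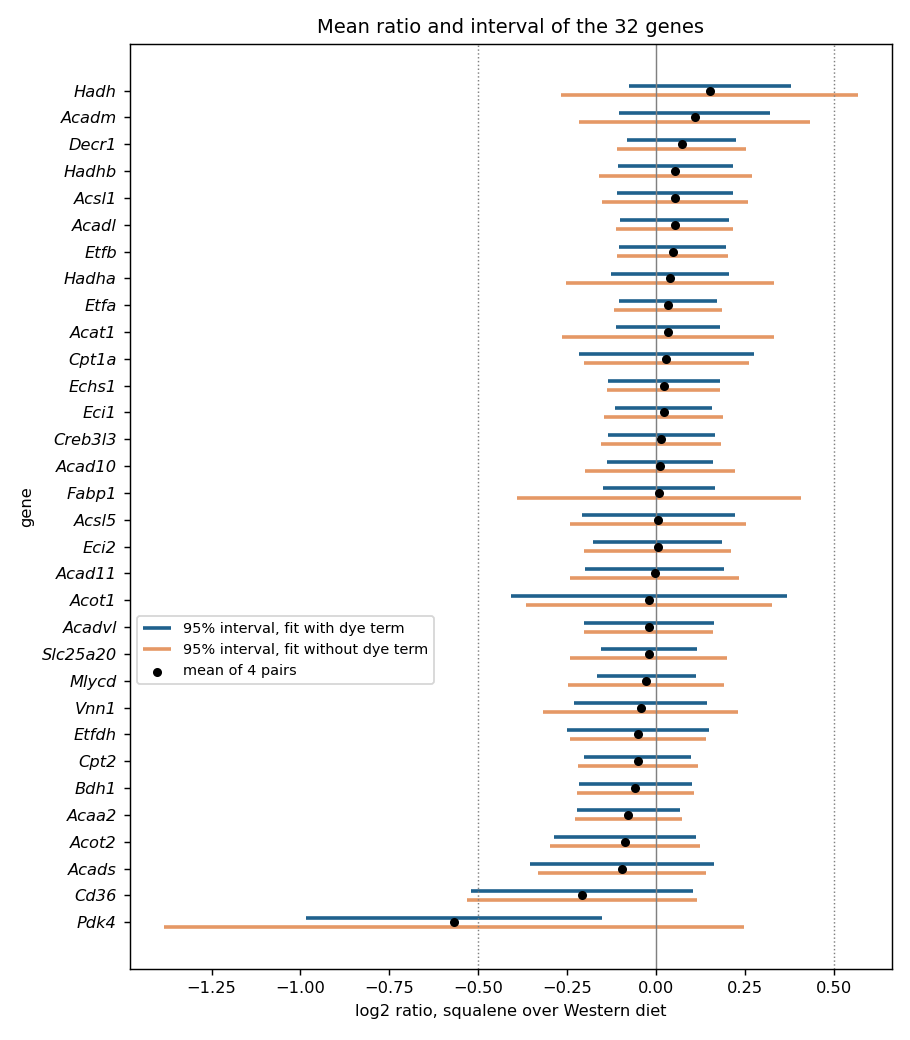
Mean log2 ratio (squalene over Western, horizontal axis) of each of the 32 genes with its 95% interval from limma, with a dye term (blue) and without (orange); n = 4 pool pairs and dotted lines mark 0.5 on either side of 0. Pdk4 stands apart at -0.57, and its interval spans 0 only in the fit without the dye term.

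No gene of the 32 had the same sign in all 4 pool pairs. Over all features, 3.33% were above 0 and 3.04% below 0 in every pair. For none of the 32 did the squalene and Western pool levels separate without overlap, against 0.765% of all features. At shares this small, a count of 0 among 32 genes is near the background. The median over the 32 genes was -0.05 in pair 1, 0.13 in pair 2, 0.06 in pair 3 and -0.06 in pair 4. Of the 32 genes, 15 (46.9%) had one sign in both pairs with squalene in Cy5 and the other sign in both pairs with squalene in Cy3, against 27.8% of all features. Most of these, 10 genes (31.2%), were above 0 when squalene was in Cy3 and below 0 when it was in Cy5, against 12.6% of all features. They were Acsl1, Slc25a20, Mlycd, Acadm, Acad10, Hadha, Hadh, Eci1, Decr1 and Acat1. The reverse held for 5 (15.6%), Fabp1, Hadhb, Vnn1, Pdk4 and Creb3l3, against 15.2% of all features. Each orientation holds its own 2 pool pairs, so a dye effect and a difference between pools cannot be told apart. The count depended on the scaling, and was 9 with the scanner software's processed signals, 22 with median centring and 21 with the authors' deposited table. The share over all features under these settings was 25%, 45.2% and 53.1%. With the processed signals, 9 of the 32 was near the share over all features, so the excess depended on the scaling too.

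**Figure D2:**
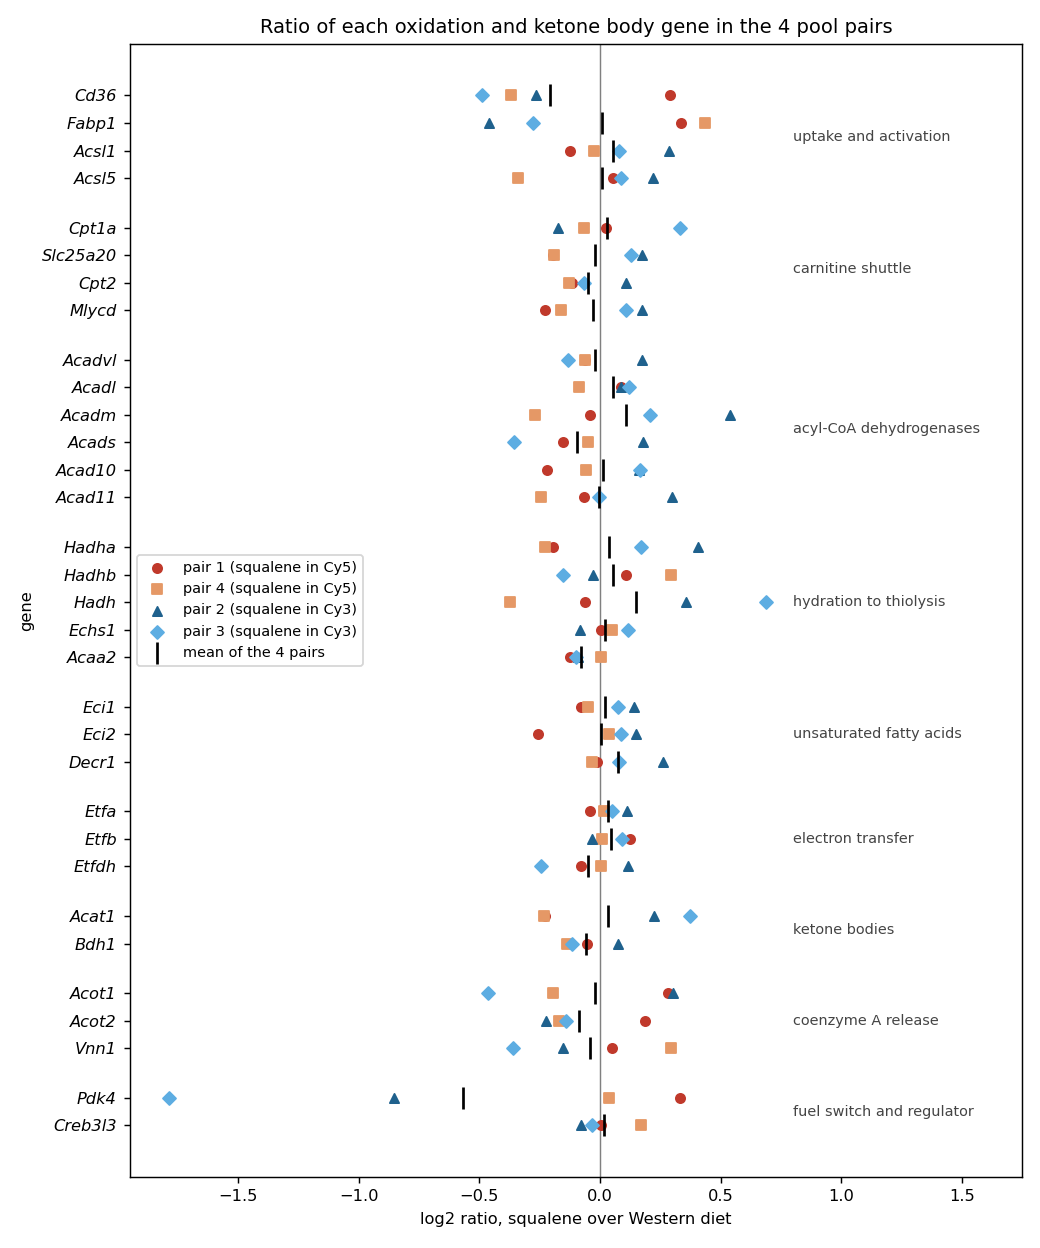
Log2 ratio (squalene over Western, horizontal axis) of the 32 genes in each of the 4 pool pairs, arranged by step of the pathway; reds mark squalene in Cy5, blues squalene in Cy3, and black ticks the mean. Most genes scatter on both sides of 0, and only Pdk4 has a ratio beyond 1 from 0, at -1.79 in pair 3.

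Repeat arrays set a scale for this scatter. Between the arrays of one pair, a gene of the 32 differed by a median of 0.06 in pair 1 and 0.03 in pair 2, and by at most 0.21. The SD between pairs had a median of 0.19 over the 32 and ran from 0.06 to 0.95. For 19 genes it was under 0.2, for 5 it lay from 0.2 up to 0.3, and for 8 (25%) it was 0.3 or more, against 16.4% of all features. Repeat arrays share pools and dye orientation but lie on different slides. Their difference thus holds array and slide effects, and none from pools or dye orientation.

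**Figure D3:**
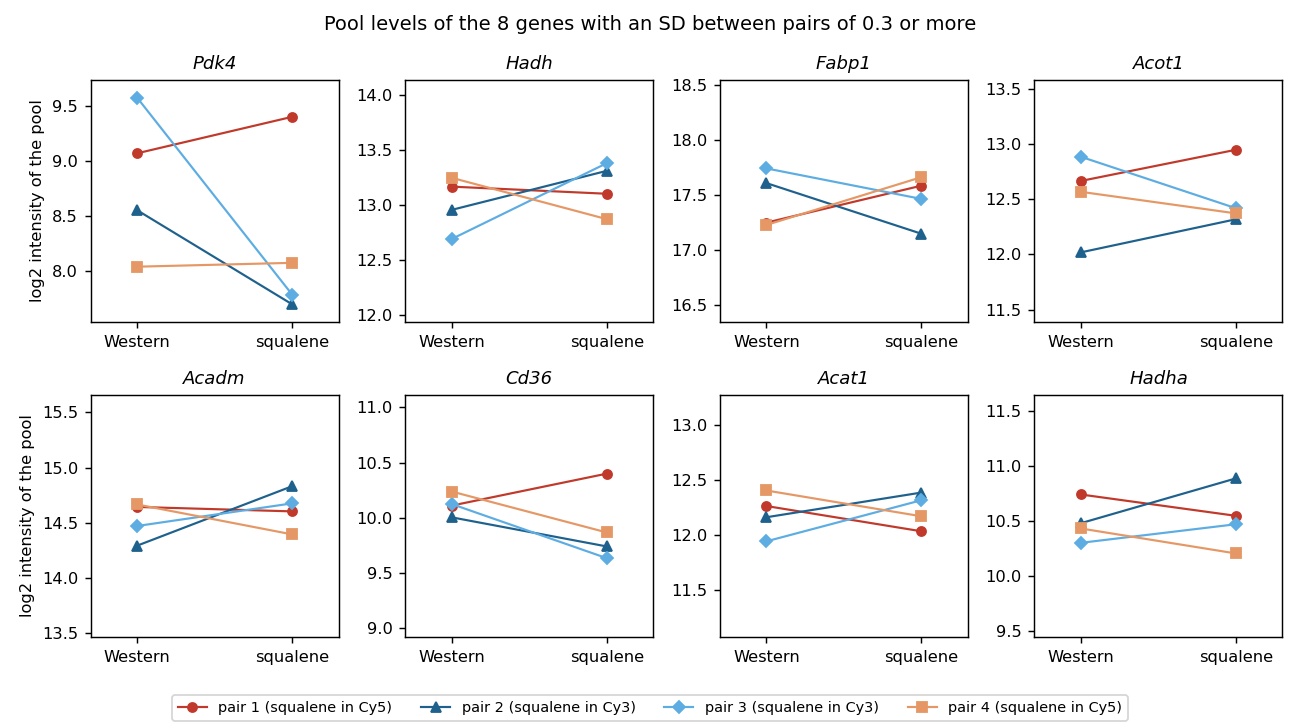
Log2 intensity (vertical axis, the same span in each panel) of the 8 genes with an SD between pairs of 0.3 or more, in the Western pool and the squalene pool of each pair, joined by a line. For all 8 genes the lines cross, and the squalene pools overlap the Western pools.

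Uptake and activation come first in the pathway. Cd36, a membrane protein that takes up long-chain fatty acids, had pool levels of 10.40, 9.74, 9.63 and 9.87 with squalene and 10.11, 10.00, 10.12 and 10.24 without. Its ratio was 0.29 in pair 1 and -0.26, -0.49 and -0.37 in pairs 2, 3 and 4. Pair 1 thus went against the other three, which held the 3 lowest pool levels. The mean was -0.21 ± 0.35 (SD, n = 4; limma adjusted p = 0.9999). Without pair 1 it was -0.37 with an unadjusted limma p of 0.0148 and an adjusted p of 0.9999.

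Fabp1, the abundant fatty acid binding protein of hepatocyte cytosol, had ratios of 0.34 and 0.43 with squalene in Cy5 and -0.46 and -0.28 with squalene in Cy3. Its squalene pools read 17.59, 17.15, 17.46 and 17.66 and its Western pools 17.25, 17.61, 17.74 and 17.23. Its mean was 0.01 ± 0.44 (SD, n = 4), which covers opposite values in the dye orientations. The acyl-CoA synthetases, which activate fatty acids, had means of 0.05 ± 0.17 for Acsl1 and 0.01 ± 0.24 for Acsl5. A less bright Acsl1 probe gave a mean of 0.26, with 0.72 and 0.54 in pairs 2 and 3 and -0.12 and -0.11 in pairs 1 and 4. Averaging the Acsl1 probes gave 0.15 with an unadjusted limma p of 0.0466 and an adjusted p of 0.9998.

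All 4 carnitine shuttle genes had means within 0.1 of 0. Cpt1a, the outer membrane carnitine acyltransferase that controls entry, had ratios of 0.03, -0.17, 0.33 and -0.07 and a mean of 0.03 ± 0.22. Its partner on the inner membrane, Cpt2, had a mean of -0.05 ± 0.11, and another Cpt2 probe read 0.06. The carnitine-acylcarnitine carrier Slc25a20 averaged -0.02 ± 0.20. Mlycd, which breaks down malonyl-CoA, the inhibitor of Cpt1a, averaged -0.03 ± 0.20.

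The acyl-CoA dehydrogenases carry out the first oxidation of each round, each on a range of chain lengths. Acadm, the medium-chain enzyme, had ratios of -0.04, 0.54, 0.21 and -0.27. Its squalene pools read 14.60, 14.83, 14.68 and 14.39 against 14.64, 14.29, 14.47 and 14.67, with pair 2 the widest apart. The mean was 0.11 ± 0.35 (SD, n = 4; limma adjusted p = 0.9999). Acadl, the long-chain enzyme, was at 0.09, 0.09 and 0.12 in pairs 1 to 3 and -0.09 in pair 4, with a mean of 0.05 ± 0.10. Acadvl, for very long chains, averaged -0.02 ± 0.13, and Acads, for short chains, -0.10 ± 0.22. The related Acad10 and Acad11 averaged 0.01 ± 0.19 and -0.004 ± 0.23. All 6 were above 0 in pair 2 and all 6 below 0 in pair 4, which have opposite dye orientations.

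Hydration, the second oxidation and thiolysis follow. Hadh, the 3-hydroxyacyl-CoA dehydrogenase for shorter chains, had the highest mean of the 32. Its squalene pools read 13.10, 13.31, 13.38 and 12.87 and its Western pools 13.17, 12.96, 12.69 and 13.25. The ratios were -0.06, 0.35, 0.69 and -0.37, positive with squalene in Cy3 and negative with it in Cy5, and the mean of 0.15 ± 0.47 was not called (limma adjusted p = 0.9999).

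Hadha and Hadhb encode the subunits of the mitochondrial trifunctional protein, which handles long chains. Hadha had ratios of -0.19, 0.41, 0.17 and -0.23 and pool levels of 10.55, 10.89, 10.47 and 10.21 with squalene against 10.74, 10.48, 10.30 and 10.43. Hadhb had the opposite pattern, at 0.11, -0.03, -0.15 and 0.29. So the subunits of one complex took opposite signs in every pair, with means of 0.04 ± 0.30 and 0.05 ± 0.19. Echs1, the short-chain hydratase, averaged 0.02 ± 0.08. Acaa2, a thiolase, had the smallest SD of the 32, with -0.12, -0.09, -0.10 and 0.01 and a mean of -0.08 ± 0.06.

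The isomerases Eci1 and Eci2 and the reductase Decr1 handle double bonds of unsaturated fatty acids. Their means were 0.02 ± 0.10, 0.004 ± 0.18 and 0.07 ± 0.13. The electron transfer flavoprotein, encoded by Etfa and Etfb, and its dehydrogenase Etfdh pass electrons from the acyl-CoA dehydrogenases to the respiratory chain. Etfa averaged 0.03 ± 0.06, Etfb 0.05 ± 0.07 and Etfdh -0.05 ± 0.15. Together these 6 genes held 5 means above 0 and 1 below, all within 0.1.

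The ketone body enzymes also had means near 0. Acat1, the mitochondrial acetoacetyl-CoA thiolase, had squalene pool levels of 12.03, 12.38, 12.32 and 12.17 and Western levels of 12.26, 12.16, 11.94 and 12.40. Its ratios of -0.23, 0.22, 0.37 and -0.23 followed the dye orientation, and the mean was 0.03 ± 0.31. Bdh1, which interconverts acetoacetate and 3-hydroxybutyrate, averaged -0.06 ± 0.10. A further Bdh1 probe had 0.25 and 0.18 in pairs 1 and 4 and -0.23 and -0.24 in pairs 2 and 3, so the probes of this gene disagree within pairs. Outside the 32, 7 other ketone body genes were measured: 3 lay above 0 and 4 below, and none passed an unadjusted p of 0.05 in limma.

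Acot1 and Acot2, near-identical thioesterases that free coenzyme A, may share probe signal and are uncertain as single genes. Acot1 had squalene pool levels of 12.95, 12.32, 12.42 and 12.37 and Western levels of 12.67, 12.02, 12.89 and 12.57, so it was higher with squalene in pairs 1 and 2 and lower in pairs 3 and 4. Its ratios were 0.28, 0.30, -0.47 and -0.20, with a mean of -0.02 ± 0.38, while Acot2 averaged -0.09 ± 0.19. The Acot2 probe was dim, with pool levels from 7.00 to 7.38, and its mean was -0.24 with the scanner software's processed signals. Vnn1, a pantetheinase in coenzyme A turnover, averaged -0.04 ± 0.28. Creb3l3, a liver transcription factor of the fasting response, averaged 0.01 ± 0.11.

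Pdk4 phosphorylates and so inactivates pyruvate dehydrogenase, and it is the gene of the 32 with the lowest mean and the widest spread. Its squalene pools read 9.40, 7.70, 7.79 and 8.08. Its Western pools read 9.07, 8.55, 9.57 and 8.04. The low squalene pools 6 and 7 and the high Western pool 3 carry the difference, and the diets overlap: squalene pool 5 was above 3 of the 4 Western pools.

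The Pdk4 ratios were 0.33, -0.85, -1.79 and 0.03 in pairs 1 to 4. Repeat arrays differed by 0.06 in pair 1 and 0.02 in pair 2, so the contrast between these pairs was far wider than that between arrays. The mean was -0.57 ± 0.95 (SD, n = 4), a geometric mean ratio of 0.674, with a limma SE of 0.16 and a 95% interval from -0.99 to -0.15. The unadjusted limma p was 0.0172 and the adjusted p 0.9999, so Pdk4 was not called. Both low pairs had squalene in Cy3: their mean was -1.32, against 0.18 in the pairs with squalene in Cy5. In the fit without the dye term the unadjusted p was 0.14 and the interval ran from -1.38 to 0.25. Without pair 3 the estimate was -0.34, still under an unadjusted limma p of 0.05. Without pair 4 it was -0.49 and no longer under it. Without pair 2 it was -0.80, with a limma adjusted p of 0.418.

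The 250 bases upstream of the RefSeq start are shown for Pdk4, Cd36 and Fabp1, the genes with the 2 lowest means and the one gene with a loose match to the PPARalpha repeat, from the GRCm38.p6 table. Pdk4 lies on chr6:5496279-5496528, minus strand, Cd36 on chr5:17835897-17836146, minus strand, and Fabp1 on chr6:71199629-71199878, plus strand. Capitals mark the half-site AGGTCA or the loose repeat (AGGNCA, any base, AGGNCA), found here on the reverse strand; the Pdk4 window holds no match and is all in lower case.
Pdk4: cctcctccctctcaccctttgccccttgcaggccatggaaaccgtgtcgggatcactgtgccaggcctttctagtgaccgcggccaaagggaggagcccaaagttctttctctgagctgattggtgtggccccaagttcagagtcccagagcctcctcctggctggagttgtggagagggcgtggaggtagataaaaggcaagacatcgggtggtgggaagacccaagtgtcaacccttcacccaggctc
Cd36: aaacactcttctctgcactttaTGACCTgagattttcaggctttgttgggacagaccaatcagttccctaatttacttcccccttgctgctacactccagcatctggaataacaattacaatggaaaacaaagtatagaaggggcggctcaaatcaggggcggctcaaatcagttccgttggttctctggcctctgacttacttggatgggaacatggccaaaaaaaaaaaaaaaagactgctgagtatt
Fabp1: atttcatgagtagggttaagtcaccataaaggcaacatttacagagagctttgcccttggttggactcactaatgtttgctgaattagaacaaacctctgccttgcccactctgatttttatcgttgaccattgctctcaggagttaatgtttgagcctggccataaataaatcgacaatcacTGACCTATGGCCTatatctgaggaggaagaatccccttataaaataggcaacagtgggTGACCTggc

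The motifs were searched on both strands in windows from 250 bases before to 50 after the start, for the 28 of the 32 genes in the table (31 windows). PPARalpha binds, with its partner RXR, to a direct repeat with 1 base between the copies. The strict repeat (AGGTCA, any base, AGGTCA) was in none of these windows and in 0.0396% of all 32851 promoters. The loose repeat, which contains the strict one, was in the Fabp1 window alone, starting at position -67, and in 0.381% of all promoters. The half-site, which the strict repeat contains, was in 7 of the 28 genes (25%), Acadm, Acadvl, Cd36, Cpt1a, Creb3l3, Echs1 and Fabp1, and in 16.3% of all promoters. The cyclic AMP element TGACGTCA, bound by the fasting factor CREB, was in none of the 28 and in 1.79% of all promoters. Such a match is a run of letters and no evidence of binding. Fabp1, Cd36 and Pdk4, which differ in these letters, had means of 0.01, -0.21 and -0.57, none of them called.

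Other genes of fatty acid oxidation and its control, from a wider list, mostly had means near 0 as well. Of 35 such genes, 25 had a mean above 0 and 10 below, and the means ran from -0.16 to 0.26. The median was 0.04, which was -0.01 without pair 3, and limma called none at an unadjusted p of 0.05. Among 19 regulators of the pathway, 12 lay above 0 and 7 below, and none passed that p. Their median of 0.05 was -0.03 without pair 3. The receptor gene Ppara itself averaged -0.05 ± 0.28, and the coactivator gene Ppargc1a 0.06 ± 0.18. Fgf21, a fasting hormone of the liver and PPARalpha target, averaged -0.35 ± 2.00, with 1.68, 0.57, -2.98 and -0.67 in pairs 1 to 4.

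Most genes on a list of further PPARalpha targets had a mean below 0. Of 27 measured, 23 lay below 0, some as little as -0.001, and 4 above. The median was -0.08, which was -0.04 without pair 3. The list mean was 0.07, 0.16, -0.44 and -0.25 in pairs 1 to 4, above 0 in pairs 1 and 2. At single genes, 3 of the 27 passed an unadjusted limma p of 0.05, all lower, against 1.42% of all features on that side. None was called after adjustment. These 3 were the lipid droplet genes Cidec (-0.56 ± 0.63, n = 4), Plin4 (-0.54 ± 0.47) and Plin5 (-0.20 ± 0.13). Cyp4a14, which hydroxylates fatty acids at their far end, averaged -0.56 ± 2.52, with 1.55, 1.59, -3.37 and -2.02. Fgf21 and Cyp4a14 were thus high in pair 1 and low in pair 3, as Pdk4 was, while in pair 2 they were above 0 and Pdk4 was below.

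Feeding and clock genes differed between the pairs too. Of 13 feeding and fasting genes, 6 lay above 0 and 7 below, and 1 passed an unadjusted limma p of 0.05, against 2.47% of all features. It was Txnip, a glucose-responsive gene, at 0.03, -0.92, -0.64 and 0.29. Of 8 clock genes measured, 7 lay above 0 with a median of 0.21, which was -0.02 without pair 3. In pair 3 the clock genes Dbp and Per2 were at 1.63 and 1.31 and Arntl at -2.07, while in pair 1 they were at 0.12, -0.14 and -0.06. The part of feeding state or time of day in the Pdk4 ratio was not tested, and the labels used here give no hour of sampling.

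**Figure D4:**
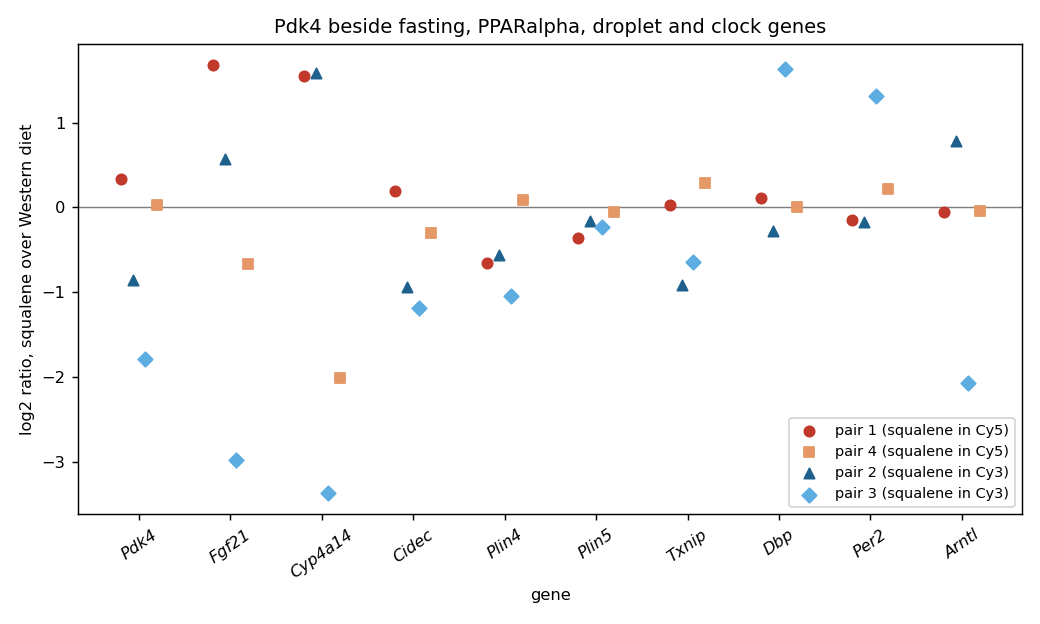
Log2 ratio (squalene over Western, vertical axis) of Pdk4 and of 9 named fasting, PPARalpha target, lipid droplet, feeding and clock genes in each of the 4 pool pairs. Pair 3 holds the lowest value for Pdk4 (-1.79), Fgf21 (-2.98), Cyp4a14 (-3.37) and Arntl (-2.07) and the highest for Dbp (1.63) and Per2 (1.31).

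Markers of other cells also differed between the pairs. All 10 macrophage markers measured had a mean below 0, 4 of them at an unadjusted limma p under 0.05. Over all features, 1.42% passed that p on the lower side. The macrophage list mean was 0.05, -0.26, -0.72 and -0.27 in pairs 1 to 4. Of 7 stellate cell and fibroblast markers, 6 were below 0 and 5 of the 7 passed that p on the lower side, with list means of 0.33, -0.70, -0.69 and 0.02. All 6 red cell markers were below 0, 4 of them past that p, with list means of 0.05, -0.55, -1.36 and 0.14. The fibroblast and red cell list means were therefore low in pairs 2 and 3, the pairs in which Pdk4 was low. Pairs 2 and 3 are also those with squalene in Cy3, so a dye effect and a difference between pools cannot be told apart. The dye term keeps that contrast out of the error behind these p-values, and the lists were not counted without it. Not every marker followed its list: Acta2, of contractile stellate cells, was at 0.82, 0.60, 0.12 and -0.11, and Alas2, of red cell heme synthesis, at -0.34, 0.08, 0.25 and -0.21. Col3a1, a collagen gene, was also low in pair 4, at -0.34. Without pair 3 the median over each list was -0.12 for macrophage, -0.22 for fibroblast and -0.14 for red cell markers, against -0.21, -0.38 and -0.49 with it. None of these markers was called after adjustment. The 5 endothelial and 4 bile duct markers measured also all had means below 0. Of the 4 lymphocyte markers measured, 2 lay above 0 and 2 below. No marker of these last lists passed an unadjusted limma p of 0.05.

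In pool levels, the macrophage list ran from 10.60 to 11.32 with squalene and 11.17 to 11.33 without, the fibroblast list from 10.02 to 10.86 and 10.43 to 11.14, and the red cell list from 12.64 to 13.28 and 12.95 to 14.00. Of 5 adipocyte markers only 1, Cfd, was above background, at 0.66, -1.97, -0.97 and -0.91. The 10 hepatocyte markers had list means of 0.09, -0.14, 0.18 and 0.16, and 9 of the 10 lay above 0. The part of these other cells in the Pdk4 ratio was not tested.

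As a description, the 5 named genes whose ratios ran closest to Pdk4 over the 6 arrays were Soga1, Pold1, C3, Ccl7 and Emp2, with Pearson r between 0.996 and 0.997. They were chosen from 2406 named features with an SD between pairs of 0.3 or more. Arrays of the same pair share their pools, so these 6 points are 4 independent pairs. C3, the complement component, had ratios of 0.69, -0.29, -0.94 and 0.34, and the chemokine gene Ccl7 had 0.80, -0.31, -0.997 and 0.53. Their means, -0.05 and 0.01, were near 0 where that of Pdk4 was -0.57.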

How the data were processed

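The 32 genes and the pathway, marker and motif lists were chosen with earlier results of these data known. Per the file headers, the deposited scanner files hold red and green spot and local background intensity as measured by Agilent Feature Extraction 10.7.3.1. In the value table that the authors deposited, values were log10 ratios, equal to log10 of squalene over Western median signals within 0.001 for at least 99.93% of spots on each array. As deposited by the authors, its columns for pair 1 were made the same way but each held 2 oversized cells, so they are recorded as a score and those cells were left out. The annotation build and further steps are not given in the sources used here.

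Probe accessions were matched to RefSeq symbols (GRCm38.p6); 26762 of 55681 probes received a name. Computation used limma 3.58.1 in R 4.3.3. Median spot signals, taken where mean signals had been planned, were corrected by normexp (offset 50) and normalised by loess within arrays. Control spots had weight 0 and spot outliers were left out. Pool levels came from Aquantile normalisation. Probes well above background in at least 3 of 4 pairs in 1 diet's channel were kept (26836), and the brightest stood for its gene. Of the 32 genes, 26 had 1 probe and 6 several. The linear model (lmFit, then eBayes) had terms for squalene and for dye. Its p-values were adjusted by Benjamini-Hochberg across all 20646 features, on 2 residual and 3.04 prior degrees of freedom. The ratio within an array already pairs the pools. The labels do not tie animals to pools, so the unit is a pool of 2 or 3 animals. With the dye term, p-values measure the spread between pool pairs of the same dye orientation, moderated by that of all features. The difference between the orientations is not part of that spread. The number of arrays limits the precision. The fit was tested on simulated data. The changes planted there were larger than the mean ratio of any of the 32 genes, so changes of their size were not covered.

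All 32 genes are named. Those with an unadjusted p under 0.05, a single sign in 4 pairs, or a mean or SD of 0.3 or more are given pair by pair. Genes of the pathway lists are named where p was under 0.05 or the mean was 0.3 or more from 0; Ppara and Ppargc1a were named in addition, for their roles. Some single-gene results are not reported here. Alternatives covered background correction, scaling, filters, probes, slides, the dye term and each pair left out. The intervals without the dye term, the list medians without pair 3 and the loose repeat were added after seeing the data.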

Additional observations from a re-analysis of the deposited data

Results flagged for a closer look

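Acadl, the long-chain acyl-CoA dehydrogenase, had 1 pool pair set apart from the others: its log2 ratio was -0.0893 in pair 4, against 0.0876 to 0.121 in pairs 1 to 3. The gap to the nearest pair was 0.842 of the gene's whole range over the 4 pairs. The check used averaged arrays. The 2 single arrays read 0.130 and 0.047 in pair 1 and 0.019 and 0.156 in pair 2. Pairs 1 to 3 thus lie close together partly through averaging, and single arrays were not checked in this way. The same check was made on each of the 32 genes and picked out 1, where chance picks out about 1 in 20.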

How the results depend on the processing

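Each of the 32 ratios was recomputed under 18 other settings, and all 576 values stayed within 1 SD between pairs of the reported ratio. That bound is loose and for many settings was met in advance. The filters, the dye term and the variance settings left the means as they were. Leaving out 1 pair cannot move a mean by 1 SD between pairs. No gene passed an adjusted p of 0.05 in limma under any setting with a test. The count at an unadjusted p under 0.05, 1 in the reported fit, was 0 with no dye term and 2 with the mean over a gene's probes, which added Acsl1. It ranged from 0 to 2 when a pair was left out: Cd36 joined without pair 1 and Acads without pair 2, at -0.23, and none passed without pair 4. The count of genes with 1 sign in every pair, 0 as reported, was 4 on the slide 1 arrays, which hold only pairs 1 and 2, and 0 to 7 with a pair left out, since fewer pairs need to share a sign. The median ratio ranged from -0.02 to 0.02 with a pair left out. Pdk4 was -0.28 on the slide 1 arrays, -0.80 to -0.34 with a pair left out and -0.71 to -0.53 elsewhere. With 3 pairs left, the fit weighs the lone pair of a dye orientation as much as the other pairs together. The sign of the mean changed for 10 genes without pair 3 and for 13 on the slide 1 arrays. Over all features, adjusted limma calls numbered 4 with slide as a block and pool pair as a random block together, 2 under median centring and 9 from the deposited table, against 0 as reported; the cause was not tested. The share of all features with opposite signs in the dye orientations was 25%, 45.2% and 53.1% with scanner-processed signals, median centring and the deposited table, so the count of such genes among the 32 follows the scaling.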
